A study of Mus musculus with 6 samples.

Results

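The acyl-CoA thioesterase (Acot) family was followed in brown adipose tissue (BAT) of mice that lack KRAP. Its members were fixed by name as Acot1, Acot2, Acot3, Acot4, Acot7, Acot8, Acot9, Acot11, Acot12 and Acot13, and a probe set was taken as a member where the platform annotation gave it 1 of these symbols and no other. This gave 15 probe sets for 10 genes, out of 45037 probe sets and 18193 named genes on the array. A further 2 probe sets that carried a member together with another symbol were left out. Of the 15 probe sets, 10 were brighter on average than the median of their array and entered the test, and they covered 8 of the 10 genes. Those of Acot3 and Acot12, and 1 of the Acot2 probe sets, were below it and are given as signals and pair ratios without a test.

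KRAP binds the actin cytoskeleton. The knockout (KO) mice carried in every tissue a KRAP allele in which a neomycin resistance cassette stands in for exons that make up the larger part of the coding region, on the C57BL6/J background, and the wild-type (WT) mice were their littermates. Total RNA of BAT, the fat depot that oxidises fuel to make heat, was taken at 32 weeks of age from 3 littermate pairs on normal chow and hybridised to Affymetrix arrays, with 1 array for each of the 6 animals. Each signal is stated in units of its array median, and values under 0.25 of the median were set to 0.25, called the floor here, before ratios and logarithms were taken. With 6 arrays, the precision of each comparison is limited by their number.

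Acyl-CoA thioesterases split fatty acyl-CoA into a free fatty acid and coenzyme A. They thereby undo the activation step of acyl-CoA synthetases and set how much acyl-CoA is at hand for oxidation, for lipid synthesis and as a ligand source in each compartment of the cell. Type I members (Acot1 to Acot6 in the mouse) are closely related enzymes of the cytosol, mitochondria and peroxisomes, and several are known targets of PPAR alpha in liver. Type II members share the hotdog fold and include Acot11, also called Them1, which is known for its abundance in brown fat and for its induction by cold.

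By RefSeq's gene order on GRCm38.p6, Acot2, Acot1, Acot4 and Acot3 follow each other on chromosome 12 with 0 other protein-coding genes between them. Whether each of their probe sets reads a single member of this group of similar genes was not tested. RefSeq promoter windows were held for 9 of the 10 members, in 11 windows, and the 250 bases before the start are used here. Printed are the windows of Acot11, which had the largest difference between the genotypes among the tested members, and of the neighbouring type I genes Acot1 and Acot4, of which Acot1 and 1 of the 2 tested Acot4 probe sets were highest in the same pair of littermates. Each runs 5′ to 3′ on the strand of its gene and ends at the base before the start, in GRCm38.p6 coordinates. The Acot11 windows are chr4:106805008-106805257 and chr4:106799832-106800081 on the minus strand. The Acot1 window is chr12:84009252-84009501 and the Acot4 window chr12:84038129-84038378, both on the plus strand. Capitals mark matches on either strand to AGGTCA, a nuclear receptor hexamer, to CCAAT, to CACGTG, an E-box, or to TGACGTCA, the CRE.
Acot11, first start: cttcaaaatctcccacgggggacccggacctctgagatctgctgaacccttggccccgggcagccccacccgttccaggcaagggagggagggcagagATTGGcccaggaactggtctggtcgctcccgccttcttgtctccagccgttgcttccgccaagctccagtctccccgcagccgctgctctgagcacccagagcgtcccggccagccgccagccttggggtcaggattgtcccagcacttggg
Acot11, second start: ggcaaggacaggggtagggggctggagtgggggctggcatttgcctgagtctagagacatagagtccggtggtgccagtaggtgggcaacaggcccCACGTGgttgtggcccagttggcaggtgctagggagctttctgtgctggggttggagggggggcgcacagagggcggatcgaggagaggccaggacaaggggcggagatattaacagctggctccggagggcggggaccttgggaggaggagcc
Acot1: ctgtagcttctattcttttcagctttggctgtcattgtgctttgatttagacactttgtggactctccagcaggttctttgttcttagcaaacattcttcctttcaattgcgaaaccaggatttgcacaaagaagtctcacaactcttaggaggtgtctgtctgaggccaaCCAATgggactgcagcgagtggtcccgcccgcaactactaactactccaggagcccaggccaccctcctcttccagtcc
Acot4: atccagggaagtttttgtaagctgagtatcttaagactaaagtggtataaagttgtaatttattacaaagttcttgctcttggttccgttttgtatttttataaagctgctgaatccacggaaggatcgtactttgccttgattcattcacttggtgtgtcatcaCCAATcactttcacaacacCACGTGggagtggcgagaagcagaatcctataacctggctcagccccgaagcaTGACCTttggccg
The first Acot11 window held 1 CCAAT match, beginning 152 bases before the start and read on the opposite strand, and the second held 1 CACGTG match at 154 bases. The Acot1 window held 1 CCAAT match at 79 bases. The Acot4 window held AGGTCA at 13 bases, read on the opposite strand, CCAAT at 85 bases and CACGTG at 66 bases. Of the windows not printed, those of Acot2, Acot3, Acot8 and Acot9 held CCAAT. That of Acot12 held AGGTCA at 110 bases, also read on the opposite strand, and that of Acot7 held none of these motifs. In all 32851 windows of the table, cut in the same way, 14% held AGGTCA, 33.8% CCAAT, 6.02% CACGTG and 1.55% TGACGTCA. A repeat of that hexamer with 1 base between, AGGTCANAGGTCA, the arrangement read by PPAR with RXR, contains the single hexamer and stood in 0.0335% of windows and in 0 of the 11 member windows, and TGACGTCA also in 0 of the 11. These matches are descriptions of letters in a window, and none of them was tied to binding in these data.

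Before the values, the arrays were compared with each other. The array of WT 2 stood apart in RNA quality probes, with an actin 3′ to 5′ ratio of 3.80 against 1.91 to 2.58 on the other 5 arrays and an 18S ribosomal RNA signal of 1143 against 32.8 to 76.9. The hepatocyte marker list summed to 68.3 in KO 3 and to 6.17 to 7.95 elsewhere, and the skeletal muscle list ranged from 39.6 to 1056, each highest in 1 KO animal. Macrophage markers summed to 110.3 to 143.9 and neuron and Schwann cell markers to 14.8 to 22.0, with the genotypes overlapping. In all 3 pairs, 1 of 10 tested macrophage genes was lower in KO and 4 were higher, and 1 of 3 neuronal, 1 of 4 hepatocyte, 1 of 12 brown adipocyte and 0 of 12 muscle genes were higher with 0 lower. Among all 11140 tested genes the shares were 19.7% lower and 10.9% higher. The tissue label was borne out by its defining markers, as Cidea, a lipid droplet protein of brown fat, read 582 to 693 and Ucp1, the uncoupling protein, 343 to 655 on all 6 arrays. The probe set for KRAP itself, listed as Itprid2, was lower in KO in 3 of 3 pairs (log2 difference -0.32, limma adjusted p = 0.720), and its place relative to the deleted exons is not known here.

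Of the 10 tested member probe sets, 0 passed the adjusted test (limma, adjusted p under 0.05), beside 0% of all 22356 tested probe sets, where the smallest adjusted p was 0.117. At an unadjusted p under 0.05, 3 of the 10 were called (Acot1, 1 probe set of Acot4 and 1 of Acot11), beside 8.55% of all tested probe sets. Of these 3, the Acot1 and Acot4 probe sets had a WT mean below the level needed to be tested and entered through their KO arrays, so their calls are no support for a difference. By direction, 2 of the 10 were lower in KO in all 3 pairs, beside 18.4% of all tested probe sets, and 1 was higher in all 3, beside 12.4%. The split of 2 lower and 1 higher moved to 2 and 4 with the signals unscaled and to 2 and 2 with quantile normalization. The study called a probe set changed where it differed 1.5-fold in the same direction in every pair. By that rule 1 of the 10 was lower, Acot11, beside 0.819% of all tested probe sets, and 0 were higher, beside 0.555%. In 1 of the 10, Acot11 again, every KO array lay below every WT array, beside 7.16% of all tested probe sets, and in 0 every KO array lay above, beside 4.59%. The median log2 difference over the 10 was 0.02, beside -0.05 over all tested probe sets, and its sign was not stable (-0.01 with a filter above 2, and -0.13, 0.27 and -0.09 without pairs 1, 2 and 3). The family as a whole thus had no common direction. Its tested members ranged from 2.36-fold lower in KO (Acot11) to 2.30-fold higher (Acot1). That upper end is no support for a rise, since Acot1 entered through its KO arrays. Apart from the Acot1 and Acot4 probe sets that entered in this way, the highest was Acot13, at 1.16-fold.

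**Figure D1:**
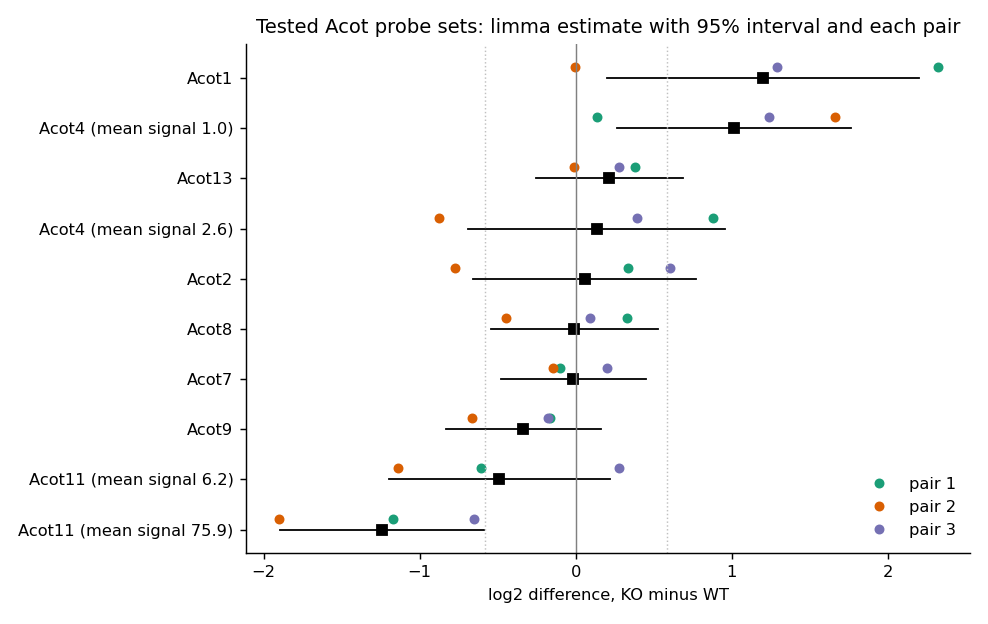
Log2 difference (KO minus WT) of the 10 tested Acot probe sets, 1 row each. Squares and lines are the limma estimate and its 95% confidence interval, coloured dots are the 3 littermate pairs, and dotted lines mark 1.5-fold; the brighter Acot11 probe set, at -1.24, is the one whose 3 dots all lie beyond a dotted line.

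Acot11 hydrolyses long-chain acyl-CoA in brown fat and is the member best known from this tissue. Its brighter probe set gave 46.3 (KO 1), 41.1 (KO 2) and 42.8 (KO 3) in knockout animals, against 104.2 (WT 1), 153.6 (WT 2) and 67.2 (WT 3) in their littermates, the order kept for the genes that follow. The KO arrays lay close together and all below the lowest WT array, while the WT arrays were spread widely, with WT 2 at the top and WT 3 at the bottom. Mean signals (± SD, n = 3) were 43.4 ± 2.65 for KO against 108.3 ± 43.3 for WT, with KO to WT ratios of 0.445, 0.268 and 0.637 in pairs 1 to 3. The log2 difference was -1.24 (95% interval -1.90 to -0.58), or 2.36-fold lower in KO, with an unadjusted p of 0.00318 and a limma adjusted p of 0.403. The limma interval, which draws in part on the spread of all tested probe sets, did not reach 0. The difference did not pass over all tested probe sets, and its size varied widely between pairs. Without pair 2, which holds the WT 2 array, it was -0.91 with an adjusted p of 0.788. It passed when a pseudocount of 1 replaced the floor (-1.22, limma adjusted p = 0.0216) and when the prior was robust and followed the intensity (limma adjusted p = 0.00372), and over all alternatives the adjusted p ran from 0.00372 to 0.788.

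The other Acot11 probe set was dimmer and did not show the same separation. It read 4.97, 3.97 and 6.40 in KO and 7.56, 8.75 and 5.28 in WT. KO was lower in pairs 1 and 2 and higher in pair 3, so the groups overlapped. The log2 difference was -0.49 (95% interval -1.20 to 0.22, with a limma adjusted p of 0.694). The value of the brighter probe set lay just outside this interval, and the difference between the 2 probe sets was not tested.

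Some markers of other cells were, like the brighter Acot11 probe set, lower in KO in all pairs. Of the 8 tested genes of the white adipocyte list, 5 were lower in KO in all pairs (Lep, Sncg, Mest, Nnat and Npr3) and 2 were higher (Hoxc9 and Retn), with a median log2 difference of -1.53 and 0 passing the adjusted test. The summed signal of that list lay within 138.7 to 201.3 for KO against 152.3 to 179.8 for WT, with 0 of its 12 named genes under the floor on every array. The summed brown adipocyte signal lay within 1945 to 2710 for KO against 1939 to 2613 for WT, so neither sum separated the genotypes. Nrg4 and Retn made up much of the white adipocyte sum (92.3 and 80.2 of 201.3 in KO 1, 62.9 and 26.2 of 179.8 in WT 3). That sum therefore says little of the 5 lower genes or of white adipocytes. Endothelial markers were lower in KO in all pairs for 4 of 9 genes. Their sum lay within 68.4 to 76.6 for KO against 73.8 to 98.1 for WT, with the top in WT 2, the array apart in RNA quality. Beside these counts, 19.7% of all tested genes were lower and 10.9% higher in KO in all pairs. The part of these markers in the Acot11 difference was not tested. In RNA of a whole depot fewer cells of a type and less RNA per cell cannot be told apart.

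**Figure D2:**
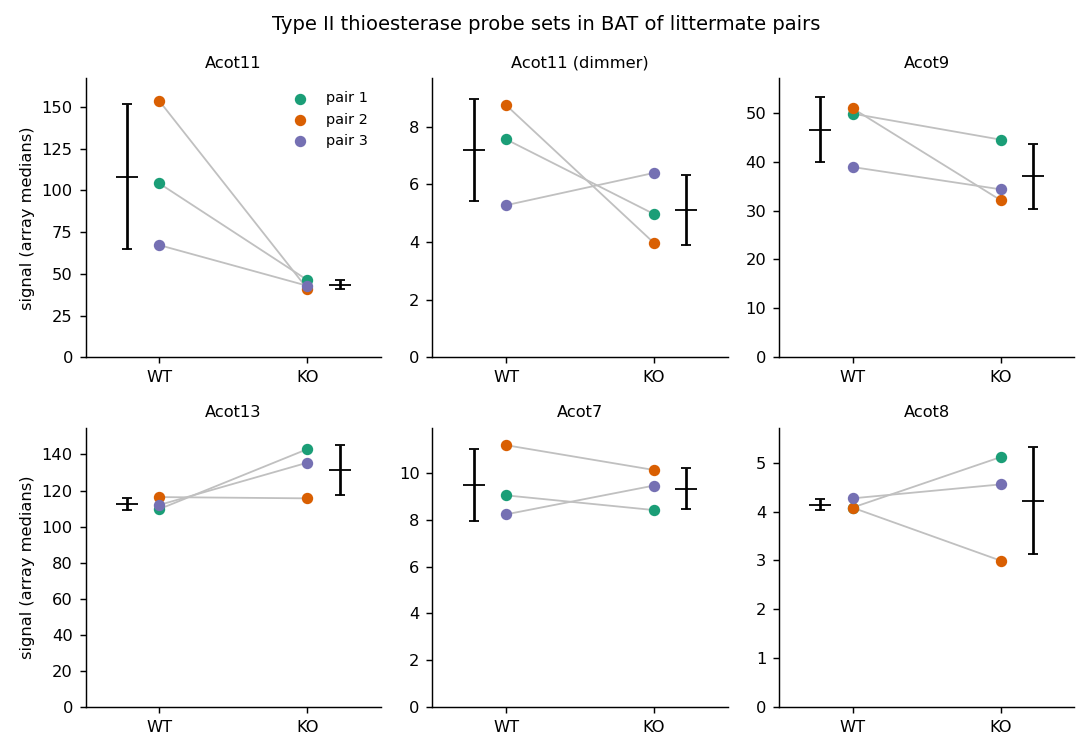
Signal in array medians (linear axes from 0) of the 6 tested probe sets of type II members, WT and KO joined by littermate pair, with the mean and SD (n = 3) beside each group. For Acot11 all KO points (41.1 to 46.3) lie below all WT points (67.2 to 153.6), and in the other 5 panels the groups overlap.

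Acot9, a mitochondrial thioesterase, was the other member lower in all 3 pairs. It read 44.5, 32.1 and 34.3 in KO and 49.8, 50.9 and 38.9 in WT. WT 3 lay below KO 1, so the groups overlapped although KO was the lower animal of each pair (ratios 0.893, 0.631 and 0.883). Mean signals (± SD, n = 3) were 37.0 ± 6.60 for KO against 46.5 ± 6.63 for WT, a log2 difference of -0.34 (95% interval -0.83 to 0.16, with a limma adjusted p of 0.7004). WT 2 was the highest array, and without pair 2 the difference was -0.17 (limma adjusted p = 0.901).

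Acot13, also called Them2, is a mitochondria-associated enzyme that binds the phosphatidylcholine transfer protein. It read 142.9, 115.7 and 135.4 in KO and 109.7, 116.4 and 112.0 in WT. The WT arrays were nearly level, and KO 1 and KO 3 lay above all of them, while KO 2 lay just under its littermate. The log2 difference was 0.22 (95% interval -0.25 to 0.69, with a limma adjusted p of 0.811).

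Acot7, a cytosolic enzyme most abundant in brain, read 8.41, 10.1 and 9.46 in KO and 9.04, 11.2 and 8.23 in WT. Its ratios of 0.930, 0.905 and 1.15 crossed 1, and the log2 difference was -0.02 (95% interval -0.48 to 0.45, with a limma adjusted p of 0.992). Acot8, a peroxisomal thioesterase of broad substrate range, read 5.11, 2.995 and 4.56 in KO and 4.08, 4.08 and 4.27 in WT. The KO arrays lay on both sides of the narrow WT range, with a log2 difference of -0.01 (95% interval -0.55 to 0.53, with a limma adjusted p of 0.997). Neither sign was stable, since both differences were above 0 with the signals unscaled (0.046 and 0.053) or quantile normalized (0.064 and 0.035).

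Acot12, the cytosolic acetyl-CoA hydrolase of liver, was dim, with mean signals of 0.0936, 0.446 and 0.644 on its probe sets. Of its 3 probe sets, 1 was under the floor on all 6 arrays (0.0203 to 0.196). The second read 1.053, 0.376 and 0.376 in KO and 0.650, 0.108 and 0.115 in WT, and the third 1.03, 0.525 and 0.733 in KO and 0.116, 0.886 and 0.576 in WT. KO 3, the array with hepatocyte markers (Alb at 28.5 and Ttr at 14.7), was not the highest array on any of the 3. Whether hepatocyte RNA contributed to these dim signals was not tested. The second probe set was higher in KO in all pairs, at 1.62-fold in pair 1 and, against WT signals under the floor, at least 1.506-fold in pair 2 and at least 1.504-fold in pair 3. At this signal a ratio rests on values close to or below the dimmest that the floor allows.

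Among the tested probe sets of the type I members of chromosome 12, Acot1 and the brighter Acot4 probe set had both arrays of pair 1 above the rest. Acot1, the cytosolic long-chain enzyme, read 8.15, 0.670 and 0.797 in KO and 1.63, 0.674 and 0.326 in WT. KO 1 was far above its littermate (ratio 4.99), KO 3 was above its littermate (2.44) and KO 2 was level with it (0.994), and the groups overlapped. Mean signals (± SD, n = 3) were 3.21 ± 4.28 for KO against 0.878 ± 0.678 for WT. The log2 difference was 1.20 (95% interval 0.20 to 2.20) with an unadjusted p of 0.0254 and a limma adjusted p of 0.515. Since the WT mean was below the level needed to be tested and KO 1 carried the mean of all arrays, the probe set entered the test through its KO arrays, and these p-values support nothing. It ran from 0.64 to 1.80 when each pair was left out in turn, with the lowest value without pair 1.

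Acot4, a peroxisomal enzyme that acts on succinyl-CoA and other dicarboxylyl-CoAs, had a pair of tested probe sets that gave unlike values. The brighter read 7.42, 0.675 and 1.199 in KO and 4.03, 1.24 and 0.914 in WT. Its ratios were 1.84, 0.546 and 1.31, and the log2 difference was 0.13 (95% interval -0.69 to 0.96, with a limma adjusted p of 0.946). The dimmer read 1.5004, 0.899 and 1.54 in KO and 1.36, 0.284 and 0.651 in WT. This was the 1 tested member probe set higher in KO in all pairs (ratios 1.10, 3.16 and 2.36), with overlapping groups and a log2 difference of 1.01 (95% interval 0.26 to 1.76, with a limma adjusted p of 0.484). Its mean over all arrays was 1.04, just above the level needed to be tested, with 1.31 for KO and 0.766 for WT, so it too entered through its KO arrays and its p-values support nothing. The difference was 0.42 with a pseudocount of 1, 0.74 with a floor of 0.5, 0.69 without pair 2, and 1.45 without pair 1, where the adjusted p was 0.0173.

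Acot2, the mitochondrial matrix enzyme for long-chain acyl-CoA, had a probe set well above the array median on every array. Its brighter probe set read 32.1, 20.5 and 27.9 in KO and 25.5, 34.9 and 18.4 in WT. KO was higher in pairs 1 and 3 and lower in pair 2 (ratios 1.26, 0.586 and 1.52), and the log2 difference was 0.06 (95% interval -0.66 to 0.77, with a limma adjusted p of 0.979). Its dimmer probe set, with a mean signal of 0.906, read 1.67, 0.642 and 1.01 in KO and 1.59, 0.440 and 0.0795 in WT. There KO was the higher animal of each pair, by a ratio of 1.048 in pair 1, 1.46 in pair 2 and, with WT 3 under the floor, at least 4.06 in pair 3.

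Acot3, a peroxisomal long-chain enzyme, had 1 probe set with a mean signal of 0.903. It read 2.09, 1.501 and 0.595 in KO and 0.932, 0.178 and 0.122 in WT. KO was higher in every pair, by 2.24-fold in pair 1 and by at least 6.002-fold and at least 2.38-fold in pairs 2 and 3, where WT was under the floor. KO 3 lay below WT 1, so the groups overlapped. In a fit with no filter on signal the log2 difference was 1.67 (95% interval 0.31 to 3.03, with a limma adjusted p of 0.673), a value that depends on the floor. With no filter, 2 of the 15 member probe sets, those of Acot3 and Acot12, were at least 1.5-fold higher in all pairs, beside 0.853% of all 45037. Over all 15, 4 were higher in KO in all pairs, beside 9.24% of all 45037, and 2 lower, beside 12%, and 3 of the 4 higher ones were too dim to be tested.

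**Figure D3:**
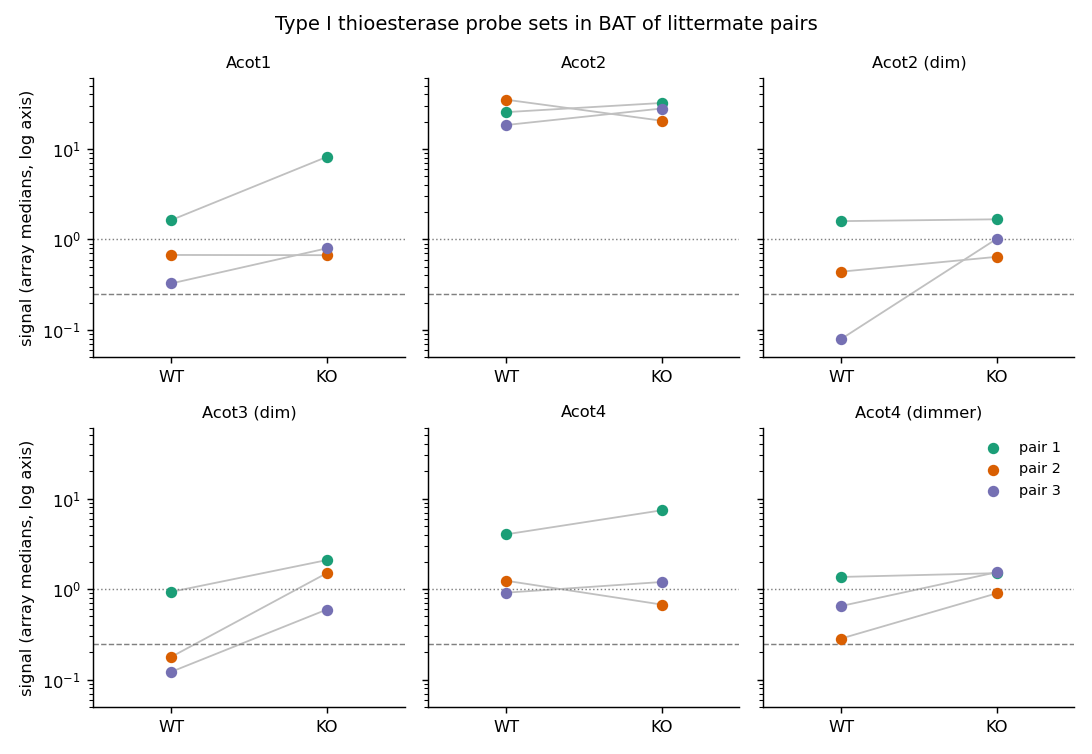
Signal in array medians (log axis) of the 6 probe sets of type I members, WT and KO joined by littermate pair, with the array median (dotted line at 1) and the floor (dashed line at 0.25). Both arrays of pair 1 lie above the rest for Acot1 (8.15 and 1.63), the brighter Acot4 probe set (7.42 and 4.03) and the dimmer Acot2 probe set (1.67 and 1.59). The brighter Acot2 probe set reads 18.4 to 34.9.

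Acot1 and the brighter Acot4 probe set, though not the dimmer one, set pair 1 apart from the other pairs in KO and WT alike, a pattern picked out after the values had been seen. Both arrays of pair 1 lay above the other 4 arrays in 2 of the 10 tested member probe sets, beside 15.3% of all tested probe sets, a share near that background. Among all 15 they were 4, with the dimmer Acot2 and the second Acot12 probe set, beside 11.4% of all 45037. Of the brown adipocyte markers 5 of 12 had the same order (Cox8b, Dio2, Kcnk3, Ppargc1a and Ucp1) and of the PPAR alpha list 5 of 20 (Acaa2, Ehhadh, Hadha, Ppargc1a and Ucp3), beside 12.8% of 11140 tested genes. The other lists had smaller counts, with 2 of 12 for carnitine transfer, 1 of 11 for acyl-CoA synthetases, 1 of 15 for coenzyme A, 1 of 3 for neuronal markers, and 0 for other thioesterases and for white adipocyte, hepatocyte, muscle, macrophage and endothelial markers. On their brightest probe sets, Dio2, the deiodinase that activates thyroid hormone in brown fat, had signals of 101.1 for KO 1 and 44.3 for WT 1, and 4.05 to 15.3 on the other arrays. Ppargc1a, the coactivator of mitochondrial genes, read 111.4 in KO 1 and 72.7 in WT 1, and 9.88 to 12.2 on the others. Ehhadh, a peroxisomal beta-oxidation enzyme, read 60.8 in KO 1 and 57.3 in WT 1, and 6.65 to 23.3 on the others. Ucp1 differed less, with 624 and 655 in pair 1 and 343 to 526 on the others. What set pair 1 apart was not tested.

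**Figure D4:**
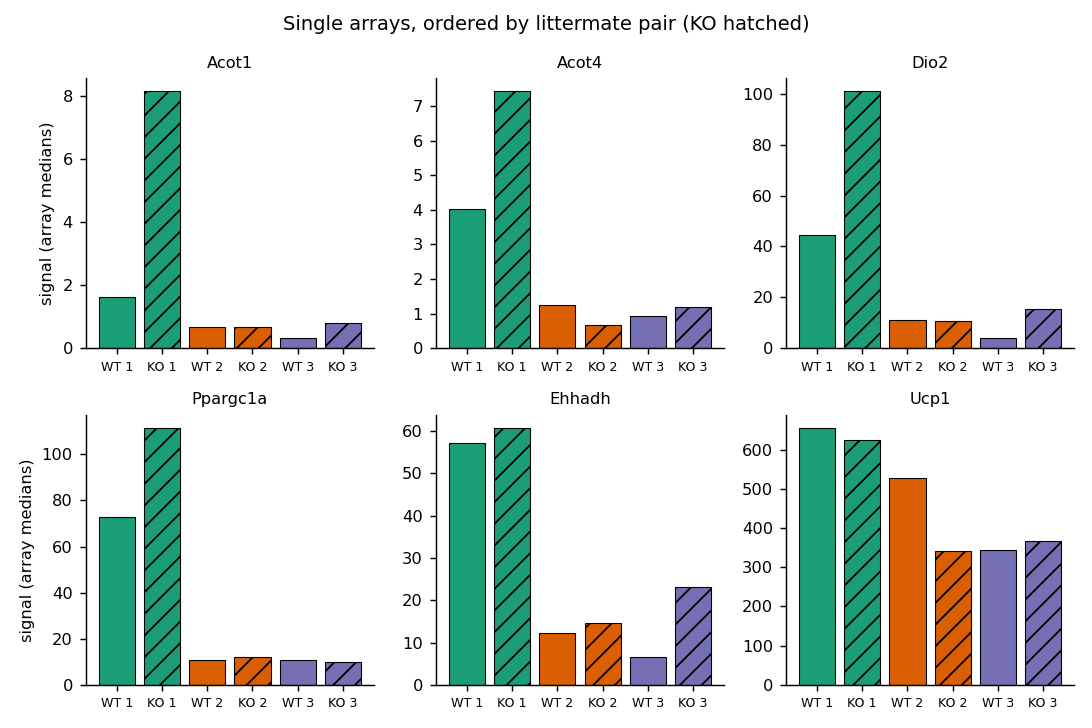
Signal in array medians on each of the 6 arrays, ordered by littermate pair, for Acot1, the brighter Acot4 probe set and 4 other genes; plain bars are WT, hatched bars KO, and each bar is 1 animal. In all 6 panels both bars of pair 1 stand above the other 4, for Acot1 at 1.63 and 8.15 against at most 0.797. The panels hold only probe sets with this order. It was found in 5 of 12 brown adipocyte markers and 5 of 20 genes of the PPAR alpha list, beside 12.8% of all tested genes.

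The enzymes and carriers around the thioesterases were described from lists, with each gene read from its brightest tested probe set and 0 genes of any list passing the adjusted test. Over all 11140 tested genes 19.7% were lower and 10.9% higher in KO in all pairs, with a median log2 difference of -0.07. The list medians below were small, and several changed sign with the processing. Of 11 tested acyl-CoA synthetases and fatty acid transport proteins, the enzymes that make acyl-CoA, 5 were lower and 4 higher in all pairs, with a median of -0.10 (-0.28 when the probe sets of each gene were averaged, and 0.096 without pair 2). Acsm3, a medium-chain acyl-CoA synthetase, read 74.4, 77.0 and 108.1 in KO and 45.7, 39.1 and 61.7 in WT, a log2 difference of 0.83 with every KO array above every WT array (limma adjusted p = 0.406). Slc27a2, a transport protein with synthetase activity, differed by 0.79 (limma adjusted p = 0.439). Acss2, the cytosolic acetyl-CoA synthetase, read 82.1, 139.1 and 128.7 in KO and 186.7, 235.0 and 157.4 in WT, a log2 difference of -0.74 with every KO array below every WT array (limma adjusted p = 0.486). These genes ran in both directions. Of the 8 tested Acot genes, read in the same way, 2 were lower and 0 higher in KO in all pairs.

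Of 8 tested other thioesterases, 2 were lower and 1 higher in all pairs, with a median log2 difference of -0.04 (0.025 unscaled and 0.027 with quantile normalization). The largest differences there were 0.30 for Lypla2 and -0.17 for Lypla1, both acyl-protein thioesterases, and -0.29 for Them4, a mitochondrial thioesterase. Of 15 tested genes of coenzyme A synthesis and breakdown, 2 were lower and 3 higher, with a median of -0.12. Slc25a42, the carrier that brings coenzyme A into mitochondria, read 43.4, 28.1 and 34.0 in KO and 26.0, 20.1 and 23.3 in WT, a log2 difference of 0.59 with the groups apart (limma adjusted p = 0.494). Pank3 and Ppcs, enzymes of coenzyme A synthesis, differed by -0.46 and -0.42. Pank3 was lower mostly in pair 2, which holds WT 2 (ratios 0.984, 0.431 and 0.911), and Ppcs in pairs 1 and 2 (0.657, 0.606 and 1.04).

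Of 12 tested genes of acyl-CoA binding and carnitine transfer, 1 was lower and 1 higher in all pairs, with a median log2 difference of -0.08 (0.067 when the probe sets of each gene were averaged). The carnitine importer Slc22a5 differed by 0.39, the carnitine palmitoyltransferase Cpt1a by -0.30 and the acyl-CoA binding protein Acbd4 by -0.29. Of 20 tested genes of PPAR alpha and its known targets, 2 were lower and 2 higher, with a median of -0.05 (0.027 when the probe sets of each gene were averaged, 0.0090 unscaled, 0.0039 with quantile normalization and 0.052 without pair 2). Plin2, a lipid droplet coat protein, read 261.8, 141.0 and 164.5 in KO and 369.4, 407.2 and 219.6 in WT, lower in every pair with overlapping groups (log2 difference -0.81, limma adjusted p = 0.505). Ehhadh differed by 0.72 and the pantetheinase Vnn1 by -0.32, with limma adjusted p of 0.639 and 0.766.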

How the data were processed

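Total RNA of BAT from 3 KO and 3 WT mice had been put by the authors on Affymetrix Mouse Genome 430 2.0 arrays, 1 per animal. The deposited value is a linear signal intensity, 1 for each probe set. GCOS is named in the submitters' processing notes; no version of it is stated there. Groups came from the labels, pairs from the label numbers and the study's methods, and 0 columns were unused. After 64 control probe sets were set aside, each intensity was divided by its array median, floored at 0.25 and taken to log2. The 22356 probe sets with a mean above 1 entered a model of genotype and littermate pair (lmFit and eBayes of limma 3.58.1, R 4.3.3), with Benjamini-Hochberg adjustment over all of them at 0.05. The fit was tested on simulated data. Folds are 2 raised to the log2 difference, which understates changes near the floor.

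Symbols were those of GEO's platform annotation, with 1 symbol for 34945 probe sets, several for 932 and 9160 unlisted. Named were all member probe sets with 1 symbol, of each gene list the 3 genes with the largest absolute difference, genes at the ends of marker lists, and others where a result turned on them. The members, the 5 gene lists and the 7 marker lists were chosen with earlier results of these data known. Labels number the animals of each genotype, and the study states that littermates were used and compares KO and WT of the same number. The numbers were therefore taken to pair the samples. Deviations from group means correlated by 0.446, 0.0847 and 0.160 within pairs and by -0.359 to 0.281 across them. Promoter windows came from RefSeq (GRCm38.p6). Scaling, floor, pseudocount, filter, prior, block and left-out pairs were varied.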

Additional observations from a re-analysis of the deposited data

How the results depend on the processing

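The brighter Acot11 probe set kept its direction under every alternative, from -1.54 to -0.91. In place of 0 member probe sets, 1 passed the adjusted test with a pseudocount of 1 (Acot11), 1 with an intensity trend and robust prior (Acot11), and 0 to 1 when a pair was left out (the dimmer Acot4 probe set, without pair 1). Over all probe sets these 3 settings called 123, 311 and 255, and a filter above 2 called 40. Without the littermate pair as a block the counts of passing probe sets stayed at 0, with 1283 at an unadjusted p under 0.05 in place of 1911, and the call of no member changed. With a pair left out, 1 to 2 probe sets were 1.5-fold lower in the remaining pairs, 0 to 1 were 1.5-fold higher, 2 to 4 lower and 1 to 6 higher; the highest counts came without pair 3 for both counts of lower ones, without pair 2 for higher, and without pair 1 or pair 2 for 1.5-fold higher. With no filter, 2 were 1.5-fold higher and 4 higher in all pairs. Higher in all pairs were 4 with no scaling, 2 with quantile normalization and 0 with a filter above 2. Signs turned for Acot7 (0.046 unscaled, 0.064 quantile normalized, -0.12 to 0.048 with a pair left out), Acot8 (0.053, 0.035, and -0.18 to 0.21), the brighter Acot2 probe set (-0.22 to 0.47 with a pair left out) and the brighter Acot4 probe set (-0.24 to 0.64, lowest without pair 1). The median over tested members ran from -0.13 to 0.27 with a pair left out, and the medians of all gene lists but that of coenzyme A changed sign under an alternative. The causes were not tested. Leaving out a pair leaves 2, where the spread rests on the prior, and signals near the floor depend on its value.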
